A study of Mus musculus with 3 samples.

Results

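The 9 genes described here mark pluripotent and formative epiblast and were followed from the epiblast into mesoderm and endoderm of the gastrulating mouse embryo. They are the transcription factor genes Pou5f1, Nanog, Sox2, Utf1, Pou3f1, Otx2 and Foxd3, the RNA-binding protein gene L1td1 and the kinase gene Pim2. They were taken by name, and all 9 were found among the 32285 genes of the count tables. The cells came from normal embryos of the ARC mouse strain in 3 droplet libraries, 1 each of E7.0 (embryonic day 7.0), E7.25 and posterior E7.5. The last library holds only the posterior region of the embryo, so region moves with stage there. With a single library for a stage, what belongs to the stage and what to the library cannot be told apart, the spread between embryos is unknown, and no test between stages was possible. Groups of cells that occur in every library were compared within each library and in a fit over all 3. The number of pooled embryos is not given in the sources used here.

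In the epiblast, Pou5f1, Sox2 and Nanog form the core of the network that keeps cells pluripotent, and after implantation Otx2 and Pou3f1 join it in the formative state, in which cells become able to answer signals for germ layer formation. At gastrulation, posterior epiblast cells switch on the T-box gene T in the primitive streak. Cells that leave as mesoderm express Mesp1, and cells that form definitive endoderm express Sox17. Nanog is known to be expressed again in the posterior epiblast at this time, and Sox2 to be kept in the anterior epiblast that gives rise to neural tissue.

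A cell was used if it had at least 1000 detected genes and if mitochondrial RNA made up no more than 10% of its unique molecular identifiers (UMIs, counts of single RNA molecules). This left 7941 cells at E7.0, 5194 at E7.25 and 8438 in the posterior library of E7.5, with medians of 11295, 8298 and 9254.5 UMIs per cell. Between 8 and 22 cell barcodes were shared by any 2 libraries. Cells were grouped by marker genes outside the 9. For this, each cell was thinned at random to 5000 UMIs, a marker was called positive at 2 or more UMIs and negative at 0, and cells rich in genes of visceral endoderm or extraembryonic ectoderm were set apart.

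Reference cells stand for the epiblast: they were positive for the epithelial gene Epcam and negative for T, Mesp1, Sox17 and Foxa2, and numbered 1327, 723 and 1369 in the libraries by stage, the order used throughout. T-only cells (223, 244 and 852) had T without Mesp1 or Sox17, and 124, 207 and 742 of them held no Foxa2 UMI after thinning. T and Mesp1 cells (490, 286 and 643) had both without Sox17, and Mesp1-only cells (1687, 516 and 976) had Mesp1 without T or Sox17. Late mesoderm cells (52, 278 and 181) had none of Epcam, T, Mesp1 and Sox17 and at least 2 UMIs of mesoderm genes such as Hand1 and Foxf1. Sox17 cells numbered 326, 42 and 85. Visceral endoderm cells (723, 785 and 357), which should hold little RNA of most of these genes, served as the background.

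Marker lists went with the names, with exceptions. The nascent mesoderm genes were Mesp1 (itself used for sorting), Tbx6, Msgn1, Lhx1 and Mixl1. They summed to 69.2, 27.7 and 18.7 CPM (UMIs per 1000000 UMIs of the group) in reference cells. In T and Mesp1 cells they summed to 2138, 1594 and 1360 CPM. Mesp1, high there by the sorting, made up 1546, 1297 and 1059 CPM of this. Lhx1 went from 50.1, 15.8 and 6.73 CPM in reference cells to 422, 100 and 126 CPM. Mixl1 went from 8.02, 2.86 and 1.97 to 135, 124 and 106 CPM. For Tbx6 it was 0.565, 2.11 and 1.91 against 34.4, 71.3 and 66.8 CPM. Msgn1 was at 0 in reference cells and only at 0.127, 0.332 and 1.999 CPM in T and Mesp1 cells. T-only cells also held node and notochord genes, which summed to 393, 152 and 139 CPM, and late mesoderm cells at E7.0 held 699 CPM of blood and endothelial genes. Of the latter, Etv2 made up 405 CPM and Kdr, also among the mesoderm genes used for sorting, 160 CPM. Egfl7 was at 70.6 and Tal1 at 59.9 CPM, Cdh5 and Pecam1 at 1.54 CPM each and Cldn5 at 0. The 12 visceral endoderm genes summed to 120, 227 and 79.5 CPM in reference cells, and all 12 were detected there.

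The genes lie on different chromosomes of GRCm38, except that Pou3f1, Foxd3 and L1td1 are all on chromosome 4. Pou5f1 is at chr17:35506018-35510772, Nanog at chr6:122707489-122714633 and Sox2 at chr3:34650405-34652461. Utf1 is at chr7:139943789-139945112, Pou3f1 at chr4:124656807-124660655, Otx2 at chr14:48657677-48673819 on the minus strand, Foxd3 at chr4:99656299-99658622, L1td1 at chr4:98726734-98738480 and Pim2 at chrX:7878262-7883432, and GENCODE M21 lists all 9 as protein-coding genes. Because Pou5f1 and Pou3f1 encode POU proteins, which bind the octamer, the 250 bases before the RefSeq start (GRCm38.p6) were searched on both strands for TTTGCAT, the core of that motif. A promoter entry was found for 8 of the 9 genes, all but Pou3f1. The letters were present in Nanog, Sox2 and Pim2 and not in the windows of Pou5f1, Utf1, Otx2, Foxd3 and L1td1. Among 27025 genes with such a window, 4.07% held TTTGCAT. Nanog had it at 75 to 69 bases before its start, within a longer composite motif, TTTGCAT followed by 1 free base and the Sox-type element ACAATG, which 1 of the 27025 windows held. Sox2 had it once, on the opposite strand, at 99 to 93 bases before the start. Pim2 had it at 3 places, at 201 to 195, 158 to 152 and, on the opposite strand, 123 to 117 bases before the start, and the first and last of these overlap the longer ATTTGCAT, which 1.62% of windows held. The windows follow 5′ to 3′ on the plus strand, with matched letters in capitals, to show these 3 genes with a match. Nanog is chr6:122707239-122707488, Sox2 is chr3:34649745-34649994 and Pim2 is chrX:7878056-7878261, where the stretch stops before the first annotated exon.
Nanog: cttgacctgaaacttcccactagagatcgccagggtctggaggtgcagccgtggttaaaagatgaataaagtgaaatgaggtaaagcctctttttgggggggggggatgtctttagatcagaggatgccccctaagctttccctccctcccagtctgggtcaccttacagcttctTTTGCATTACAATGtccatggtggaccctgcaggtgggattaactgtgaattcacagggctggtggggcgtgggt
Sox2: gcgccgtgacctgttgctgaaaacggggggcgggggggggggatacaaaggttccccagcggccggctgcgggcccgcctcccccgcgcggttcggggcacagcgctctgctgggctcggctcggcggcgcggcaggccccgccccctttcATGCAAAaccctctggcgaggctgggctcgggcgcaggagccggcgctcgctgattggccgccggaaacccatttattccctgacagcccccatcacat
Pim2: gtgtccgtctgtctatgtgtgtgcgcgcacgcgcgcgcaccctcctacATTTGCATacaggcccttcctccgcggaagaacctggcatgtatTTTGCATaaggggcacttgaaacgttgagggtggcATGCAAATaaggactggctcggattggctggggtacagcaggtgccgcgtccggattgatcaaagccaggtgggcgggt
These matches describe the sequence only. The genes with the letters did not share a pattern in the cells: Nanog was among the genes kept best in T-positive cells, and Sox2 among those lowest there.

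Apart from Otx2 and Foxd3, the order in which the 9 genes were lost was the same in outline at all 3 stages. Otx2 in T-only cells was at 51.7%, 25.2% and 16.9% of the reference, so its place moved with the library, and Foxd3 had too few UMIs at the later stages. In cells with T, Sox2, Utf1 and Pou3f1 were already 4.8- to 10.9-fold below the reference, L1td1 and Pim2 were 2.1- to 3.3-fold below it, and Pou5f1 and Nanog were kept. Nanog was lower in cells with T and Mesp1 at E7.0 and E7.5 posterior, Pou5f1 was at least 2-fold lower once T was gone and Mesp1 remained, and in late mesoderm all 9 were low. Sox17 cells took another course, in which Nanog was kept, Otx2 was kept or higher except at E7.5 posterior, and Pou5f1 was lower. The order is read across groups of cells and was not followed in time. Values are sums of raw UMIs over the cells of a group, scaled to CPM, and 95% intervals cover counting error only. Since a 3' library counts molecules with gene-specific efficiency, levels are compared within a gene and not between genes.

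**Figure D1:**
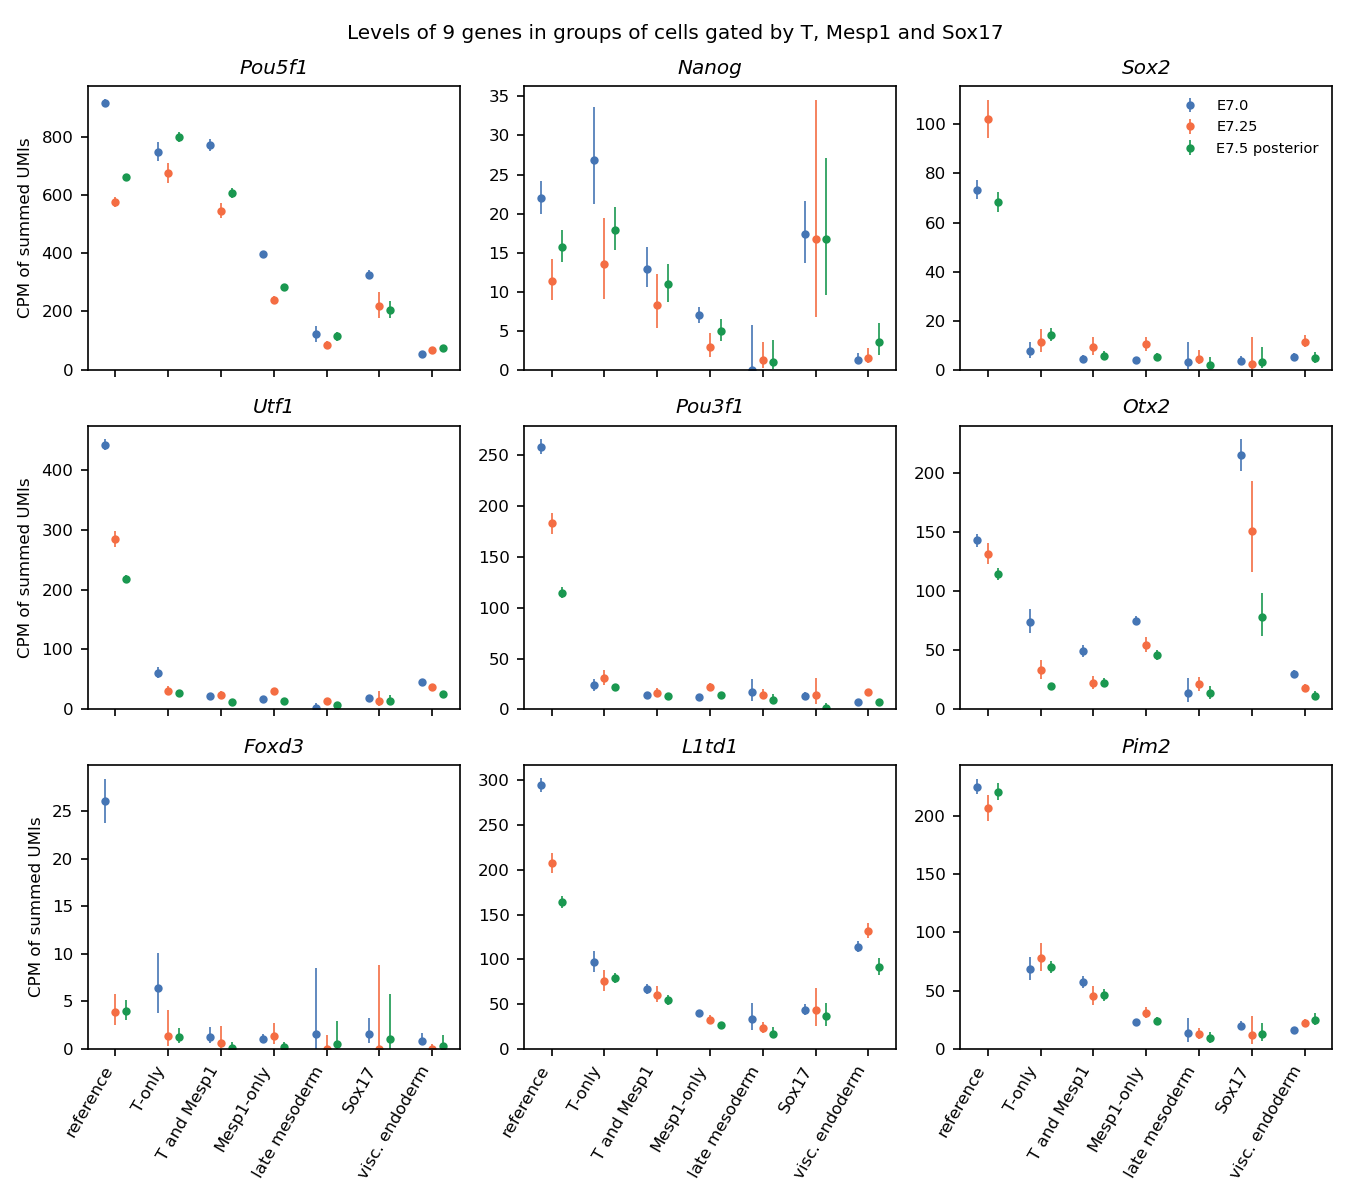
Level (CPM, linear axis from 0, 1 panel a gene) in each group of cells, coloured by library; points are UMIs summed over the cells of a group and bars are exact Poisson 95% intervals for counting error. Pou5f1 stays between 545 and 799 CPM through T-only and T and Mesp1 cells and is at 85.2 to 121 CPM in late mesoderm, while Sox2, Utf1 and Pou3f1 are already low in T-only cells.

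Pou5f1, the POU factor required for pluripotency, was at 916, 576 and 660 CPM in reference cells. It was at 749, 674 and 799 CPM in T-only cells and at 771, 545 and 607 CPM in T and Mesp1 cells. Pou5f1 in T-only cells was thus close to its reference level, with log2 ratios of -0.29 (interval -0.36 to -0.23), 0.23 (0.14 to 0.32) and 0.28 (0.23 to 0.32), lower at E7.0 and higher at the later stages. In Mesp1-only cells it was at 396, 238 and 283 CPM, which is 43.2%, 41.3% and 42.9% of the reference, a fraction that varied little between libraries. In late mesoderm it was at 121, 85.2 and 114 CPM, still above the 53.9, 66.8 and 74.7 CPM of visceral endoderm. The share of cells with a Pou5f1 UMI at 5000 UMIs per cell followed the same course, with 97.1%, 91.1% and 96.3% of reference cells, 94.2%, 92.2% and 95.5% of T-only cells and 78.8%, 54.5% and 65.3% of Mesp1-only cells. Without thinning, the shares in Mesp1-only cells were 94.0%, 69.6% and 82.7%. Visceral endoderm cells had 12.6%, 14.0% and 20.2% thinned and 25.7%, 19.6% and 29.4% unthinned, at median depths of 12008, 8435 and 8963 UMIs against 11837, 8711 and 9273.5 in Mesp1-only cells.

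Nanog, the homeobox factor of the naive epiblast and again of the posterior epiblast, was sparse, at 22.0, 11.3 and 15.8 CPM in reference cells. T-only cells had 26.9, 13.5 and 17.9 CPM, and the intervals of all 3 ratios to the reference included 0 on the log2 scale, with point values of 0.29, 0.26 and 0.19. A loss of Nanog with T alone was thus not detectable at this depth, and the lower bounds of the 3 intervals were -0.08, -0.41 and -0.11. With Mesp1 beside T, Nanog was at 12.9, 8.29 and 10.9 CPM, and with Mesp1 alone at 6.94, 2.86 and 4.95 CPM. The latter is 31.5%, 25.3% and 31.4% of the reference. At the end of this course, late mesoderm held 0, 3 and 2 Nanog UMIs in all, which at E7.0 makes the gene at least 4.78-fold lower than in reference cells (against a floor of 3 UMIs for the group).

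Sox2, the HMG-box partner of Pou5f1, was low in T-positive cells. It was at 73.3, 102 and 68.2 CPM in reference cells and at 7.42, 11.2 and 14.2 CPM in T-only cells. The groups were far apart, with log2 ratios of -3.30 (-4.00 to -2.69), -3.19 (-3.84 to -2.60) and -2.27 (-2.54 to -2.0). The library at E7.5 posterior kept the most Sox2 with T, 20.8% of the reference against 10.1% at E7.0 and 11.0% at E7.25. T and Mesp1 cells (4.44, 9.29 and 5.60 CPM) and Mesp1-only cells (4.09, 10.3 and 5.14 CPM) were close to visceral endoderm (5.11, 11.3 and 4.59 CPM), so what remained there is no more than background. A Sox2 UMI was found in 28.5%, 38.5% and 27.7% of reference cells, in 2.7%, 5.3% and 5.4% of T-only cells and in 1.1%, 2.7% and 1.1% of visceral endoderm cells. Unthinned, the shares were 51.2%, 52.3% and 44.3% of reference cells at median depths of 11465, 8438 and 10076 UMIs, 7.62%, 8.20% and 11.3% of T-only cells at 10361, 8012.5 and 9456 UMIs, and 4.56%, 5.86% and 2.80% of visceral endoderm cells.

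Utf1, a chromatin-bound factor of the epiblast, had the lowest mean ratio over the libraries of the 9 genes in T-only, T and Mesp1 and Mesp1-only cells. Reference cells had 442, 284 and 218 CPM and T-only cells 61.2, 31.3 and 26.8 CPM, which is 13.8%, 11.0% and 12.3% of the reference. It was at 22.6, 23.9 and 12.3 CPM in T and Mesp1 cells and 16.9, 30.4 and 14.3 CPM in Mesp1-only cells, both below visceral endoderm at 45.8, 37.9 and 25.6 CPM. Visceral endoderm thus gives no floor for Utf1. The T-only level was near that of visceral endoderm, and the lower values are not read as an order. With predicted doublets removed, the log2 ratio in Mesp1-only cells went from -4.70, -3.23 and -3.92 to -5.82, -3.72 and -5.66. Pou3f1, the POU factor of the formative epiblast and of neural progenitors, had a like course. It was at 259, 183 and 115 CPM in reference cells, 23.7, 30.8 and 22.0 CPM in T-only cells and 13.7, 15.9 and 13.5 CPM in T and Mesp1 cells, beside 7.52, 17.1 and 6.74 CPM in visceral endoderm.

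Otx2, the homeobox factor that starts the formative state and later patterns the anterior embryo, had no single place in the order. Reference cells had 143, 132 and 115 CPM, T-only cells 73.9, 33.2 and 19.3 CPM, and T and Mesp1 cells 49.2, 21.9 and 22.7 CPM. Cells that had Mesp1 and no T had more again, 75.1, 54.4 and 46.2 CPM, with log2 ratios to the T and Mesp1 cells of 0.61 (0.45 to 0.77), 1.31 (0.92 to 1.72) and 1.03 (0.77 to 1.29). Otx2 was thus lower in cells with both genes than in cells with Mesp1 alone, at all 3 stages, and it was the only member above its T and Mesp1 level in Mesp1-only cells with an interval clear of 0 in every library. A UMI of Otx2 was found in 23.8%, 10.7% and 6.5% of T-only cells, in 29.0%, 20.7% and 18.5% of Mesp1-only cells and in 10.0%, 6.1% and 5.0% of visceral endoderm cells. Unthinned, these were 40.4%, 16.4% and 12.7%, then 51.4%, 33.3% and 29.1%, and then 15.8%, 9.30% and 7.28%. In late mesoderm it was at 13.8, 21.1 and 13.6 CPM, beside a visceral endoderm level of 29.5, 17.9 and 11.6 CPM, so below it at E7.0.

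Foxd3, a forkhead factor needed to maintain the epiblast, was measurable mainly at E7.0. Reference cells had 26.0, 3.92 and 4.0 CPM, from 506, 26 and 63 UMIs. T-only cells at E7.0 had 6.36 CPM (18 UMIs) and T and Mesp1 cells 1.27 CPM (10 UMIs). The log2 ratio in T-only cells at E7.0 was -2.03, and -3.14 when cells with Foxa2 were left out. With 3 and 11 UMIs in T-only cells at E7.25 and E7.5 posterior, its place in the order is not known at those stages.

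L1td1, which encodes an RNA-binding protein derived from a LINE-1 element, and Pim2, a serine/threonine kinase, were lower at each step. L1td1 was at 294, 207 and 164 CPM in reference cells, 96.9, 75.7 and 78.8 CPM in T-only cells, 67.1, 60.7 and 54.4 CPM in T and Mesp1 cells and 40.1, 32.7 and 27.0 CPM in Mesp1-only cells. Pim2 was at 225, 206 and 221 CPM, then 68.2, 78.5 and 70.2 CPM, then 57.1, 45.4 and 46.1 CPM, and then 23.5, 31.1 and 23.9 CPM. Both genes lay between the early group of Sox2, Utf1 and Pou3f1 and the late pair of Pou5f1 and Nanog. L1td1 is no marker of the embryo proper: visceral endoderm had 114, 132 and 91.7 CPM, more than any of the T-positive or mesoderm groups of the same library.

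Set out as counts of genes at least 2-fold below the reference, the loss went from 6, 7 and 7 of the 9 genes in T-only cells to 7, 7 and 7 in T and Mesp1 cells, 8, 9 and 9 in Mesp1-only cells and 9, 9 and 9 in late mesoderm. None was 2-fold higher in any of these groups. Among all genes at 20 CPM or more in either group, the share at least 2-fold lower in T-only cells was 1.73%, 2.04% and 1.35%. For T and Mesp1 cells it was 3.41%, 3.81% and 2.9%, for Mesp1-only cells 4.53%, 4.13% and 3.84%, and for late mesoderm cells 5.44%, 4.35% and 4.06%. The shares at least 2-fold higher were 5.01%, 4.02% and 3.66% in T-only cells, 2.92%, 3.29% and 3.53% in T and Mesp1 cells, 3.79%, 4.13% and 4.01% in Mesp1-only cells and 6.84%, 6.99% and 6.78% in late mesoderm. The 9 genes reached 20 CPM in full at E7.0, and 7 did at each later stage, where Nanog and Foxd3 did not. Of the genes at 20 CPM, 6, 6 and 6 were at least 2-fold lower in T-only cells and 7, 6 and 6 in T and Mesp1 cells. In Mesp1-only cells these were 8, 7 and 7, and in late mesoderm 9, 7 and 7. The median log2 ratio of the 9 in Mesp1-only cells was -3.26, -2.66 and -3.04, beside 0.02, 0.01 and 0.01 over all genes measured. These genes were known as epiblast genes when chosen, so a low count in mesoderm is a description.

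The same contrasts were then tested over the 3 libraries, on UMIs summed per group and with the library as a block, which asks for a change that the stages share. The test was edgeR's quasi-likelihood test with Benjamini-Hochberg adjustment over all genes tested, at an adjusted p under 0.05. In T-only cells 7 of the 9 genes were lower, beside 12.9% of all genes. Pou5f1 and Nanog did not pass there, with log2 ratios of 0.05 (SE 0.09, edgeR adjusted p = 0.758) and 0.21 (SE 0.12, edgeR adjusted p = 0.224). All 9 were lower in T and Mesp1 cells, beside 19% of all genes, with Pou5f1 the nearest to the reference at -0.14 (SE 0.03, edgeR adjusted p = 0.00383) and Nanog next at -0.61 (SE 0.12, edgeR adjusted p = 0.000363). All 9 were also lower in Mesp1-only and late mesoderm cells, beside 23.5% and 19.3%. In Sox17 cells 7 were lower, beside 13.2%, while Nanog, at -0.18 (SE 0.21, edgeR adjusted p = 0.612), and Otx2, at 0.17 (SE 0.12, edgeR adjusted p = 0.348), did not pass. Leaving out a library changed 4 of these calls. Without E7.0, Pou5f1 passed as higher in T-only cells (0.23, edgeR adjusted p = 1.41e-08). Neither Pou5f1 in T and Mesp1 cells (-0.09, edgeR adjusted p = 0.114) nor Foxd3 in Sox17 cells (-2.47, edgeR adjusted p = 0.143) passed. Without E7.5 posterior, Otx2 passed as higher in Sox17 cells (0.46, edgeR adjusted p = 5.60e-05). These fits rest on fewer libraries and lean on a spread pooled over all genes, so their p-values say little about the spread between libraries. For Pou5f1 in T-only cells the SE was 0.04 without E7.0, beside 0.09 over all 3.

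**Figure D2:**
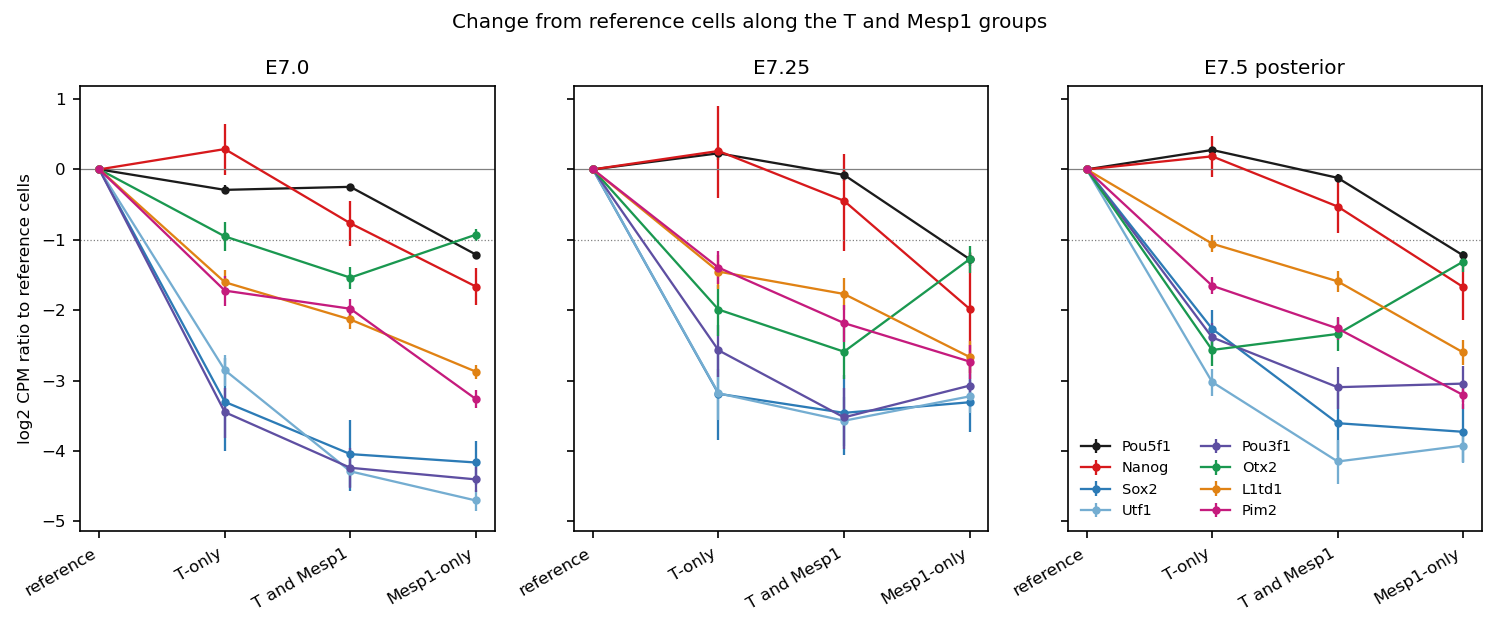
Log2 ratio of CPM to reference cells of the same library (1 panel a library) in T-only, T and Mesp1 and Mesp1-only cells, for 8 genes without Foxd3; bars are exact 95% intervals for counting error and the dotted line marks 2-fold lower. Pou5f1 and Nanog are the upper lines in T-only cells, Pou5f1 is between -1.27 and -1.21 in Mesp1-only cells, and Otx2 is higher in Mesp1-only than in T and Mesp1 cells.

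Ranked by the mean log2 ratio over the 3 libraries, the order of loss in T-only cells ran from Utf1 (-3.02), Sox2 (-2.92) and Pou3f1 (-2.80) through Otx2 (-1.84), Foxd3 (-1.75), Pim2 (-1.59) and L1td1 (-1.37) to Pou5f1 (0.07) and Nanog (0.25). Neighbours within this list had overlapping intervals in 2 or 3 libraries, so their order is not resolved. The exception was the step between L1td1 and Pou5f1, whose intervals overlapped in 0 of 3 libraries. In T and Mesp1 cells 2 steps were clear in this sense, from Pou3f1 (-3.62) to Otx2 (-2.16) and from L1td1 (-1.83) to Nanog (-0.58). Foxd3 (-3.94) was not resolved there, since it was the lowest gene in 2 libraries and the fifth at E7.25, after Otx2. In Mesp1-only cells Utf1, Sox2 and Pou3f1 had the lowest means, Foxd3 ranked from 1 to 7 by library, and Pou5f1 (-1.24) and Otx2 (-1.17) were kept best, ahead of Nanog (-1.77), with neighbours overlapping in 1 to 3 libraries.

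Levels also differed with the amount of the marker. When cells without Sox17 were binned by T UMIs, Pou5f1 at E7.25 was at 408 CPM with 0 T UMIs, 389 with 1, 527 with 2 to 3, 639 with 4 to 7 and 740 with 8 or more. At E7.5 posterior it went from 518 over 556, 659 and 766 to 784 CPM in the same bins, so cells with the most T had the most Pou5f1. At E7.0 the bin with 4 to 7 UMIs was the highest, at 879 CPM, beside 675 CPM with 0, and the bin with 8 or more held only 19 cells. The cells with 0 T include mesoderm that has left the streak as well as epiblast. Utf1 had the opposite course over these bins: at E7.5 posterior it was at 136, 52.6, 23.8, 16.2 and 14.1 CPM, and at E7.0 at 229, 65.1, 41.0 and 25.1 CPM in the first 4. Nanog stayed between 12.5 and 18.2 CPM over all 5 bins at E7.5 posterior.

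Along Mesp1 the members differed in how steeply their level dropped. At E7.5 posterior, Sox2 was at 45.1 CPM with 0 Mesp1 UMIs, 22.6 with 1, 8.50 with 2 to 3, 4.25 with 4 to 7 and 2.55 with 8 or more. Pou5f1 in the same bins was at 648, 555, 440, 388 and 437 CPM, a far shallower course. Nanog lay between them in relative terms, at 16.4, 13.0, 10.3, 5.93 and 5.49 CPM.

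**Figure D3:**
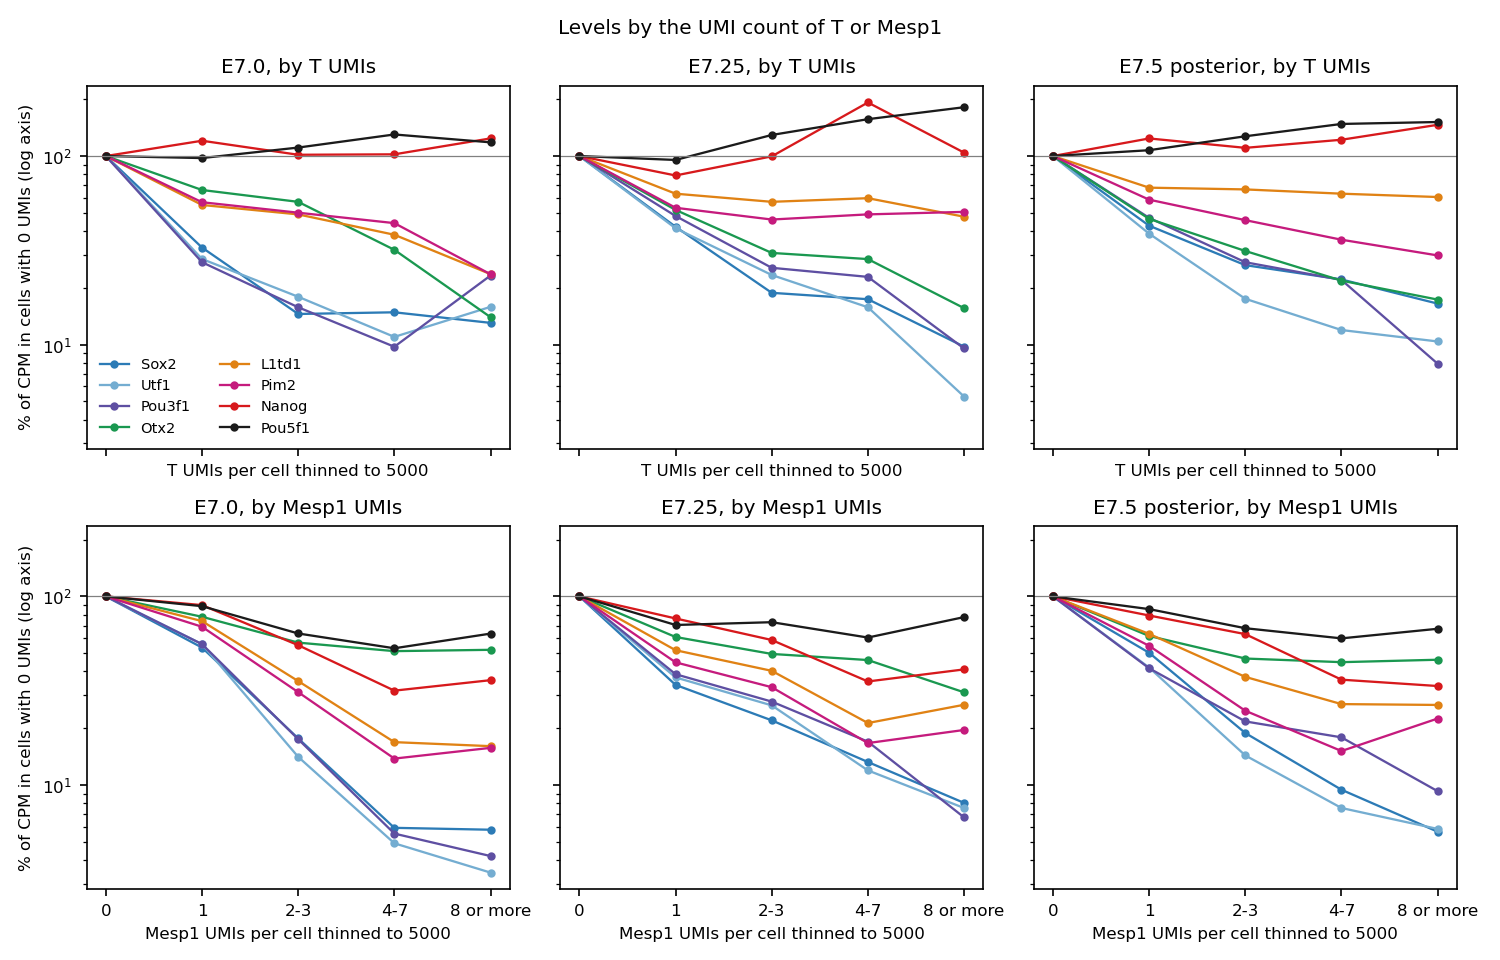
Level of 8 genes, without Foxd3, as a percent of the level in cells with 0 UMIs of the marker (log axis), against the UMIs of T (upper panels) or Mesp1 (lower panels) in a cell thinned to 5000 UMIs, with 1 column of panels a library. Pou5f1 and Nanog are the upper lines along T, where Pou5f1 at E7.5 posterior goes from 518 to 784 CPM, and all 8 genes lie below their starting level from 1 Mesp1 UMI on.

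Counted per cell, fewer of the 9 genes were seen together from group to group. At 5000 UMIs per cell, a reference cell held UMIs of 4.69, 4.10 and 3.78 of the 9 genes on average. This was 2.10, 1.90 and 1.83 in T-only cells, 1.78, 1.58 and 1.53 in T and Mesp1 cells, 1.43, 1.09 and 1.13 in Mesp1-only cells and 0.75, 0.604 and 0.674 in late mesoderm, beside 0.867, 0.897 and 0.824 in visceral endoderm. At least 6 of the 9 were seen in 31.7%, 20.7% and 14.3% of reference cells and in 1.8%, 0.82% and 0.352% of T-only cells. At most 2 of the 9 were seen in 8.74%, 16.6% and 22.9% of reference cells and in 67.7%, 75.8% and 78.2% of T-only cells. Among T-only cells at E7.5 posterior, the 46 with a Sox2 UMI held Pou3f1 in 19.6% (interval 9.4% to 33.9%) and L1td1 in 45.7% (30.9% to 61.0%). The 806 without Sox2 held them in 7.4% (5.7% to 9.5%) and 25.6% (22.6% to 28.7%), and the L1td1 intervals did not overlap. All of these are cells of a single library, among which predicted doublets were kept, so the intervals do not cover the spread between embryos.

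The definitive endoderm list (Sox17 included) summed to 2489, 3328 and 3166 CPM in Sox17 cells. Of this, Krt18 made up 559, 1351 and 1184 CPM and Sox17 itself 510, 415 and 413 CPM. Krt18 was also at 381, 1091 and 591 CPM in late mesoderm. In Sox17 cells, Nanog was near its reference level, Otx2 was above or below its own by stage, and the other genes with enough UMIs were lower. Nanog was at 17.3, 16.8 and 16.7 CPM, from 77, 7 and 16 UMIs, and the log2 ratios of -0.34 (-0.71 to 0.01), 0.57 (-0.79 to 1.69) and 0.09 (-0.74 to 0.82) all included 0. This was above visceral endoderm at 1.25, 1.56 and 3.51 CPM by intervals clear of 0 in each library. Otx2 was at 215, 151 and 78.4 CPM, with log2 ratios of 0.59 (0.48 to 0.69), 0.20 (-0.20 to 0.57) and -0.55 (-0.90 to -0.21), so it was above the reference at E7.0 and below it at E7.5 posterior. The nascent mesoderm genes summed to 1250, 418 and 232 CPM in Sox17 cells, and Lhx1 made up most of this, at 1153, 298 and 155 CPM. Mesp1 did not move with Otx2, at 67.5, 86.4 and 73.2 CPM. Lhx1 was also lower at the later stages in reference cells, at 50.1, 15.8 and 6.73 CPM, and its part in the Otx2 difference was not tested. The Otx2 ratio at E7.5 posterior did not hold at a stricter gate, since it was 0.08 in cells with 3 or more Sox17 UMIs. Within Sox17 cells at E7.0, Otx2 was at 201 CPM in the 219 cells with 2 to 3 Sox17 UMIs and at 237 CPM in the 102 cells with 4 to 7.

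Pou5f1 took an intermediate place in Sox17 cells, at 326, 218 and 205 CPM, or 35.6%, 37.9% and 31.1% of the reference. Sox2 was at 3.38, 2.40 and 3.14 CPM, from 15, 1 and 3 UMIs, which is not above visceral endoderm. L1td1 was at 43.9, 43.2 and 36.6 CPM, Pim2 at 19.8, 12.0 and 12.5 CPM, Utf1 at 18.9, 14.4 and 13.6 CPM, and Pou3f1 had 60, 6 and 1 UMIs. Of the 9 genes, 7, 6 and 7 were at least 2-fold lower in Sox17 cells, beside 2.55%, 4.62% and 3.22% of all genes measured, and none was 2-fold higher, beside 3.97%, 7.07% and 6.77%. Among members at 20 CPM or more, as those shares require, 7, 6 and 6 were 2-fold lower. Foxd3 had no usable ratio at E7.25, with 0 UMIs. The visceral endoderm genes summed to 316, 552 and 355 CPM in Sox17 cells, above the reference and far below the 19973, 24367 and 22224 CPM of visceral endoderm. With the 42 and 85 cells at the later stages, the Sox17 values carry wide intervals.

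**Figure D4:**
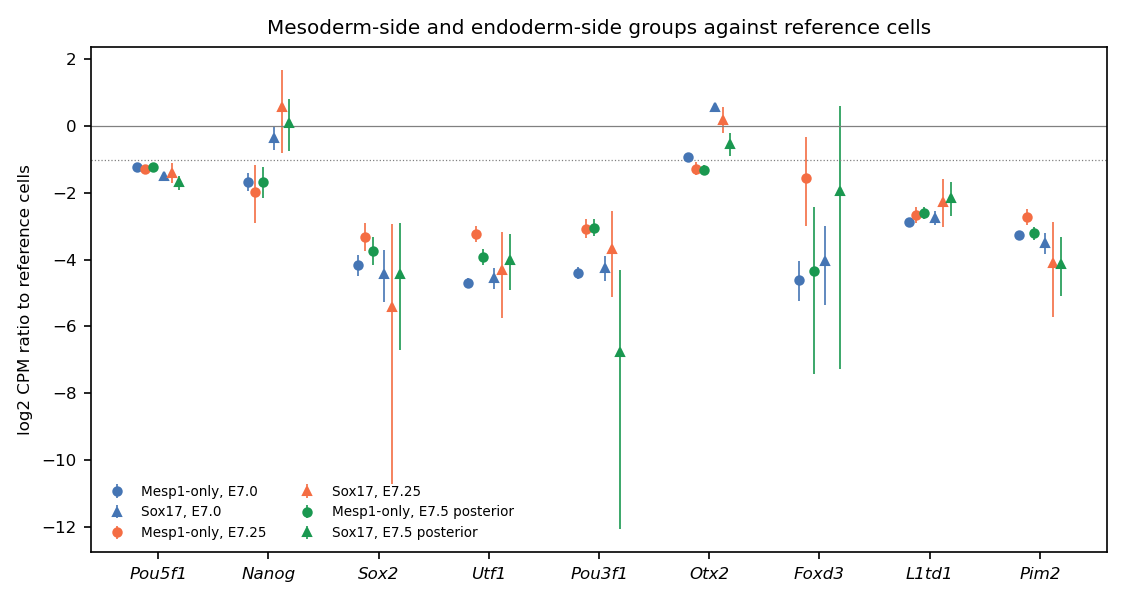
Log2 ratio of CPM to reference cells for each gene in Mesp1-only (circles) and Sox17 cells (triangles), coloured by library; bars are exact 95% intervals for counting error, the dotted line marks 2-fold lower, and Foxd3 in Sox17 cells at E7.25, with 0 UMIs, is not drawn. Otx2 lies between -0.55 and 0.59 in Sox17 cells, and Nanog and Otx2 lie between -1.98 and -0.93 in Mesp1-only cells.

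Across libraries, the reference cells differed in some members and not in others. The neural and ectoderm list (Irx3, Hesx1, Six3, Epha5 and Pax6) summed to 18.4, 79.9 and 77.2 CPM in them. Most of that change was Irx3, at 12.1, 67.2 and 64.1 CPM. Six3 was at 2.42, 7.23 and 8.07 CPM, Pax6 at 0.771, 1.36 and 2.16, Hesx1 at 1.49, 1.96 and 1.52, and Epha5 at 1.59, 2.11 and 1.33. Irx3 was not confined to ectoderm in these data. It was at 67.1, 57.6 and 45.0 CPM in Sox17 cells, 38.3, 37.8 and 40.8 CPM in Mesp1-only cells and 2.89, 11.6 and 5.66 CPM in visceral endoderm. At E7.0 both Sox17 and Mesp1-only cells were thus above reference cells for Irx3. Whether the makeup of the reference cells differed, and its part in these differences, was not tested. Foxd3 stood out, at 26.0 CPM at E7.0 and 3.92 and 4.0 CPM later, with log2 ratios to E7.0 of -2.73 (-3.36 to -2.16) and -2.70 (-3.10 to -2.32). With Cdh1 in place of Epcam as the epithelial marker, the first of these was -1.61. Pou3f1 and Utf1 were lower at each later stage, with log2 ratios of E7.5 posterior to E7.0 of -1.17 (-1.25 to -1.09) and -1.02 (-1.08 to -0.96), and L1td1 followed at -0.85. Pou5f1 and Nanog were lowest at E7.25. Sox2 was highest there, and its E7.0 and E7.5 posterior levels differed by less than counting error (-0.10, interval -0.22 to 0.01). Pim2 differed little, at 225, 206 and 221 CPM, and Otx2 had a log2 ratio of -0.32 over the same span. At least 2-fold lower in reference cells were 1 of 9 genes from E7.0 to E7.25, 0 from E7.25 to E7.5 posterior and 3 from E7.0 to E7.5 posterior, beside 1.46%, 0.975% and 0.836% of all genes measured. None was 2-fold higher, beside 1.49%, 0.863% and 0.622%.

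Whole libraries differ in the makeup of their cells. Pou5f1 was at 591, 343 and 536 CPM and Nanog at 15.4, 6.80 and 13.0 CPM, both lowest at E7.25, where visceral endoderm cells made up 16.8% of cells with 5000 UMIs, beside 9.87% at E7.0 and 4.66% at E7.5 posterior. The part of this makeup in the difference was not tested. At least 2-fold lower were 2, 0 and 1 of the 9 genes over the same 3 steps, beside 1.52%, 3.29% and 1% of all genes. These were Nanog and Foxd3 at E7.25 and Foxd3 at E7.5 posterior, each against E7.0, and both genes lie under the 20 CPM that those shares require. Of the 7 members at 20 CPM or more, 0, 0 and 0 were 2-fold lower. Within T-only cells, Otx2 showed a strong difference between stages, with a log2 ratio of E7.5 posterior to E7.0 of -1.93 (-2.23 to -1.64), while it was -0.32 in reference cells. The node and notochord genes given above and Foxa2, at 165, 53.2 and 45.8 CPM, moved with it in T-only cells, and their part in the difference was not tested.

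A wider list of 49 genes, all found in the tables, was less uniform. It was chosen with earlier results of these data known. It mixes pluripotency genes with others, Cdh2, Lefty2 and Ifitm1 among them, so its mixed directions depend in part on that choice. In Mesp1-only cells or the reference 30, 29 and 29 of them reached 20 CPM, and their median log2 ratio was -0.25, -0.27 and -0.32. Of these, 8, 8 and 9 were at least 2-fold lower than in reference cells, beside 4.53%, 4.13% and 3.84% of all genes. At least 2-fold higher were 5, 5 and 4, beside 3.79%, 4.13% and 4.01% of all genes. Lower in all 3 libraries were Slc7a3, Eras, Epcam, Cdh1, Dnmt3b, Sall2, Dnmt3a and Fgf5, of which Epcam was used to choose the reference. Dnmt3b, the de novo DNA methyltransferase of the epiblast, was at 1325, 1330 and 1323 CPM in reference cells and at 229, 259 and 253 CPM in Mesp1-only cells. Slc7a3, an amino acid transporter, was at 82.2, 73.1 and 87.4 CPM and at 4.68, 8.40 and 7.71 CPM. Higher in all 3 were Lefty2, Ifitm1, Tdgf1 and Cdh2. Tdgf1, the NODAL co-receptor, was at 75.8, 14.2 and 7.56 CPM in reference cells and 456, 114 and 99.5 CPM in Mesp1-only cells, opposite in direction to the 9.

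Over the 20 points of cell group and library with at least 50 cells, which share depth and cells of the same libraries, the log2(CPM + 5) levels of Pou5f1 were most alike those of Flywch2 (Pearson r = 0.96), Ina (0.95) and Gid4 (0.94), among 7182 genes. Nanog was nearest to Dab1 (0.92), Hist3h2ba (0.92) and Tor3a (0.90). Sox2 was nearest to Slc7a3 (0.97), Elavl3 (0.96) and Dtx1 (0.95), and Slc7a3 was also nearest to Pou3f1 (0.94) and second for Utf1 (0.90). Otx2 had Ppp2r3c (0.91), Aopep (0.90) and Smco4 (0.79), Foxd3 had Txlng (0.80), L1td1 had Chmp4c (0.88) and Pim2 had Jph4 (0.96). Among the members themselves, Sox2 went with Pou3f1 (0.94) and Utf1 (0.92), and Pou5f1 with Nanog (0.85), while Otx2 reached at most 0.66, with Nanog. These correlations describe the groups and carry no test.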

How the data were processed

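The deposited tables hold raw UMI counts per gene and barcode, as whole numbers, which the authors made with Cell Ranger 6.0.1, as the file headers state, limited to barcodes called as cells. No scaling was applied by the authors as far as the values show. Neither the genome build nor the annotation is given in the sources used here. Of 32285 gene identifiers, 32158 were found in GENCODE M21 (GRCm38), which gave the gene coordinates; promoter windows came from RefSeq on GRCm38.p6. Per the labels, the libraries used version 3.0 or 3.1 of the 10x 3' protocol, and which library used which is not given.

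The files held 111010034, 48836272 and 92190474 UMIs by stage. Kept cells had at least 1000 detected genes and at most 10% mitochondrial UMIs. For gating, cells were thinned to 5000 UMIs without replacement (seed 0) and 614, 509 and 774 shallower cells were left out. Cells with visceral endoderm genes (12) at 0.5% of UMIs or extraembryonic ectoderm genes (8) at 0.1% were set apart. Predicted doublets (504, 216 and 570, the highest scores of a nearest-neighbour method with 2 simulated doublets per cell, at 0.8% per 1000 cells) were kept in the main values and removed in an alternative.

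Levels are summed raw UMIs per 1000000 with exact Poisson intervals, ratios have exact conditional binomial intervals, and shares have Clopper-Pearson intervals, all at 95% and for counting error only. Stages, each a single library, were not tested against each other. Cell groups were tested against reference cells over the 3 libraries with edgeR 4.0.16 (TMM factors, filterByExpr, library as a block), a test chosen after seeing the data. SEs there are the log2 ratio over the square root of F. The p-values rest on the spread between libraries, which also differ in stage and region, moderated by the spread pooled over all genes. In fits that leave out a library, the pooled spread weighs more. UMIs at or under 3 in both groups gave no ratio, and 0 UMIs gave a bound against 3. The 9 genes, the wider list and the markers were chosen with earlier results of these data known. The genes named are the 9, members of the wider list at least 2-fold changed the same way in Mesp1-only cells of all 3 libraries (at most 8 each way), and the 3 genes most alike each member in level. The interval and edgeR scripts were tested on simulated data. Alternatives were other cell filters, doublet removal, other gate limits, unthinned gates, Cdh1 in place of Epcam, gates split by Foxa2, other limits for extraembryonic cells, median-of-ratios scaling and no minimum level, and for the edgeR fit leaving out each library, DESeq2-type size factors and no filter. Analysis used numpy 2.4.6, scipy 1.17.1, pandas 2.3.3, scikit-learn 1.9.0 and matplotlib 3.10.9.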

Additional observations from a re-analysis of the deposited data

Results flagged for a closer look

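Pou5f1 in T-only cells moved in opposite directions against the reference of its own library. By stage, the log2 ratio was -0.29, then 0.23 and, in the posterior library, 0.28, and no interval included 0. The reference itself differed, at 916 CPM at E7.0 beside 576 and 660 CPM. The T-only cells differed in makeup too, since 124 of 223, 207 of 244 and 742 of 852 held no Foxa2 UMI after thinning. The part of this in the Pou5f1 difference was not tested. With 1 library per stage, the difference between stages was not tested.

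Otx2 in Sox17 cells was above the reference at E7.0 (log2 ratio 0.59) and E7.25 (0.20, with an interval that includes 0) and below it at E7.5 posterior (-0.55). At 3 or more Sox17 UMIs the last value was 0.08. The difference was not tested, and the posterior dissection moves with the stage.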

How the results depend on the processing

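Under the alternatives run, the counts of member and library pairs (of 27) at least 2-fold below the reference stayed within 1.5 times of 20 for T-only, 21 for T and Mesp1, 26 for Mesp1-only, 27 for late mesoderm and 20 for Sox17 cells. The wider list changed with the minimum level: 25 pairs were lower among 88 measured at 20 CPM, and 51 among 146 with no minimum. The share of all genes at least 2-fold lower in Mesp1-only cells, over the 3 libraries, went from 4.17% to 20.4% without that minimum. Of 2440 single values under an alternative, 2137 stayed within the main interval, 303 left it, and 0 of those at least 2-fold apart in the main setting changed sign. A smaller one that did was Otx2 in Sox17 cells at E7.5 posterior, from -0.55 to 0.08 at 3 or more Sox17 UMIs. Removing predicted doublets deepened the loss of the early genes in Mesp1-only cells, for Sox2 from -4.16, -3.31 and -3.73 to -5.10, -3.91 and -4.89; the cause was not tested. The 2 genes kept best were the same pair in every setting for T-only, T and Mesp1, Mesp1-only and Sox17 cells. No such order is given for late mesoderm, where Foxd3 and Nanog rest on 0 to 3 UMIs a library. In the edgeR fit over libraries, the members lower numbered 7, 9, 9, 9 and 7 in T-only, T and Mesp1, Mesp1-only, late mesoderm and Sox17 cells. They ranged from 8 to 9 in T and Mesp1 cells and from 6 to 7 in Sox17 cells when a library was left out, and no call changed with the other size factors or without a filter. Nanog and Foxd3 are limited by depth in all groups, and Sox17 cells at E7.25 by their number.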

Other observations

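Cells above the limit for extraembryonic ectoderm genes numbered 138, 327 and 72 and were not uniform. The 8 genes of that list summed to 2750, 2582 and 1697 CPM in them, beside 699, 288 and 1109 CPM of visceral endoderm genes. Definitive endoderm genes summed to 1467, 1006 and 2311 CPM, the higher list at E7.5 posterior. Most of this was the keratin gene Krt18, at 877, 795 and 1292 CPM, while Sox17 and Foxa2 at E7.5 posterior were at 79.2 and 59.1 CPM. Wfdc2 of the extraembryonic ectoderm list was at 74.9, 75.6 and 348 CPM in these cells and at 333, 271 and 327 CPM in reference cells. Pou3f1 was at 501, 347 and 141 CPM there, above its reference level by a log2 ratio of 0.95 (0.86 to 1.05) at E7.0 and 0.92 (0.80 to 1.04) at E7.25, while the interval of the ratio at E7.5 posterior, 0.29, reached 0. Sox2 was at 106, 78.0 and 53.7 CPM, Utf1 at 409, 332 and 181 CPM and L1td1 at 188, 260 and 144 CPM. Nanog was at 1.90, 1.47 and 2.69 CPM and Pou5f1 at 92.4, 90.3 and 207 CPM. The part of the mixed makeup in these levels was not tested. Otx2 was at 51.7, 14.4 and 81.9 CPM.

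Of the germ cell marker Dppa3, only 1 cell outside the extraembryonic groups held 2 or more UMIs, at E7.0, and it had 7 Pou5f1 UMIs and 0 of Nanog. Germ cells are not described here.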
